A study of Mus musculus with 39 samples.

Results

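The gubernaculum of INSL3-KI and WT male mice at postnatal day 23 (P23) was compared across all Ensembl genes, with 3 INSL3-KI libraries set against 3 WT libraries, which are 6 of the 39 RNA-seq libraries of the study. Of the 22036 Ensembl genes in the deposited count table, 15194 had enough reads to be tested and 6842 did not. In INSL3-KI mice, on a C57BL/6J background, the minke whale INSL3 cDNA replaces the mouse coding sequence at the Insl3 locus, so the native regulatory elements drive the whale hormone and the mouse hormone is missing. WT mice of the same background carry the mouse gene, and neither genotype received a drug or an operation. Each sample is whole tissue labelled as a biological replicate, and the sources used here do not say whether 1 library holds 1 animal or several. Libraries are written as WT1 to WT3 and KI1 to KI3, and where 3 values of a group are given they follow this order. Their total counts lay between 34312042 and 40564683.

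The gubernaculum is the cord that ties the testis to the inguinal abdominal wall. INSL3, a peptide hormone of testicular Leydig cells, acts on it through RXFP2, a receptor that couples to Gs proteins and raises cAMP. In rodents the cord everts after birth into the cremaster sac, whose wall is skeletal muscle covered by mesothelium and supplied by nerve, and the tail of the epididymis lies at its end. In whole tissue, fewer cells of a type and less RNA per cell cannot be told apart, and this holds for every difference given here.

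The genes that fell in the INSL3-KI gubernaculum were led by those of skeletal muscle, many of which had no read or only a few in the INSL3-KI libraries. By edgeR's quasi-likelihood test, 355 of the 15194 genes (2.34%) were lower in INSL3-KI and 32 (0.211%) were higher, with a call needing a Benjamini-Hochberg adjusted p-value under 0.01 together with a change of 2-fold or more. The 355 lower genes had log2 fold changes with a median of -5.19, and the 32 higher genes one of 1.86. Of the lower genes, 90 belong to 8 lists of skeletal muscle genes that hold 155 genes in all. The median over all genes tested was 0.11, and it was 0.40 when libraries were scaled by their totals in place of TMM (trimmed mean of M-values) factors, so log2 fold changes near these values are no difference from the bulk of genes.

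Large gains were as frequent as large losses, but they varied more among the INSL3-KI libraries. A fitted log2 fold change of -2 or less was seen for 967 genes, of which 313 (32.4%) were called. One of 2 or more was seen for 1047 genes, of which 13 (1.24%) were called. The median SD of log2 CPM (counts scaled to library size) among the 3 INSL3-KI libraries was 2.19 for the gains and 0.83 for the losses, against 0.41 over all genes. The gains were also divided among libraries, with 286 of the 1047 genes highest in KI1, 302 in KI2 and 459 in KI3. The plot of fold change against level shows this asymmetry.

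**Figure D1:**
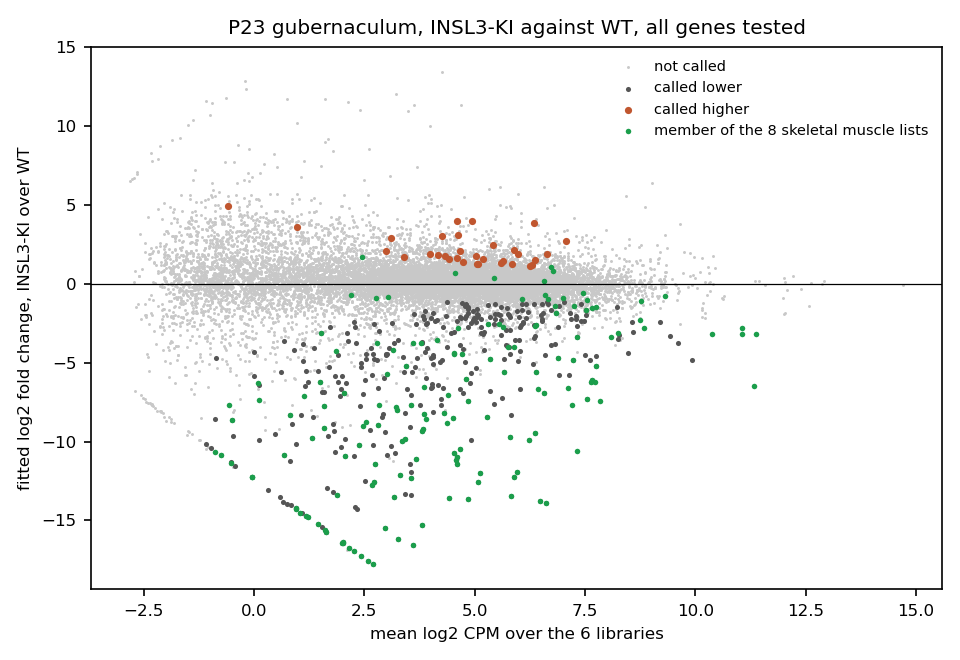
Fitted log2 fold change of INSL3-KI over WT (vertical axis) against mean log2 CPM over the 6 libraries (horizontal axis), 1 point per gene tested, with the calls and the members of the 8 skeletal muscle lists in colours given in the key. The 355 lower calls reach far below the 32 higher calls, and the straight edge at the lower left is made of genes with 0 counts in all INSL3-KI libraries, whose fitted values depend on the prior count.

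Both counts moved with the tool, the threshold and single libraries. DESeq2 called 1405 genes lower and 844 higher, which is 8.28% and 4.97% of those given an adjusted p-value. At an adjusted p-value under 0.05, edgeR called 1100 lower (7.24%) and 540 higher (3.55%). Left out in turn, WT1, WT2 and WT3 gave 98, 19 and 77 lower genes, and KI1, KI2 and KI3 gave 76, 499 and 231. The higher genes numbered 0, 0 and 4 without WT1, WT2 and WT3, and 0, 138 and 125 without KI1, KI2 and KI3.

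The INSL3-KI libraries differed from each other more than the WT libraries did. The biological coefficient of variation was 0.496 among the INSL3-KI libraries and 0.286 among the WT libraries. KI1 and KI3 correlated at 0.93 in log2 CPM across genes, which are not independent replicates, while KI2 correlated at 0.85 with KI1 and 0.77 with KI3. KI1 and KI3 held transcripts of smooth muscle and of the epididymal duct, of which KI2 held few, KI1 and KI2 held transcripts of white fat, and KI2 held the most endothelial and red blood cell transcripts. WT3 also held some epididymal transcripts. Values are therefore given library by library, and the part of these tissues in each difference was not tested.

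The targeted gene could not serve as a check of the labels in this tissue. Insl3 (chr8:71689214-71690575, plus strand, GRCm38) is made in the testis, and its raw counts here were 27, 9 and 20 in WT and 12, 28 and 0 in INSL3-KI, at most 1.01 CPM after TMM scaling. The groups overlapped, and the gene was at or close to 0 in both (adjusted p = 0.72). Its receptor Rxfp2 (chr5:150018675-150082184, plus strand) was at 116, 90.1 and 59.4 CPM in WT and 0.213, 4.50 and 1.16 CPM in INSL3-KI. All WT libraries lay above all INSL3-KI libraries, and KI2 kept the most. The fitted difference did not pass the 0.01 threshold (log2 fold change -5.50 ± 1.11 (SE), adjusted p = 0.03), although it did without KI2 (-7.03, adjusted p = 0.0089) and by DESeq2 (-5.51, adjusted p = 4.2e-08).

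Of the 17 genes listed for the INSL3 axis and testis descent, Rxfp2 among them, edgeR called none. It had 3 lower and 4 higher at an unadjusted p-value under 0.05 (16.8% and 16.6% of all genes). DESeq2 called 3 lower and 2 higher (8.28% and 4.97% of all genes). Esr1, the estrogen receptor alpha, was at 178, 269 and 178 CPM in WT and 73.2, 88.0 and 74.0 CPM in INSL3-KI (log2 fold change -1.41 ± 0.22 (SE), adjusted p = 0.017). Notch1, a receptor of cell fate signals, had the reverse order, at 27.4, 39.1 and 50.4 CPM in WT and 148, 138 and 136 CPM in INSL3-KI (log2 fold change 1.85 ± 0.25 (SE), adjusted p = 0.0105). In both genes the groups lay apart and the INSL3-KI libraries were nearly equal, but the threshold was not reached. Calcrl, part of the receptor for the neuropeptide CGRP that the genitofemoral nerve releases, was at 33.7, 35.6 and 62.0 CPM in WT and 153, 68.5 and 79.2 CPM in INSL3-KI (adjusted p = 0.1). Its partner Ramp1 was at 145, 77.4 and 145 CPM in WT and 24.0, 9.05 and 87.9 CPM in INSL3-KI (adjusted p = 0.22). Calcrl was thus higher in each INSL3-KI library than in any WT library, while Ramp1 had KI3 inside the WT range and KI1 and KI2 under it. Nr2f2, a nuclear receptor of mesenchyme, was at 47.4, 58.2 and 81.3 CPM in WT and 152, 113 and 164 CPM in INSL3-KI, without overlap (adjusted p = 0.037).

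Skeletal muscle transcripts made up the largest group of called genes among the lists. The 8 lists took 23.4, 16.3 and 14.99% of the Ensembl gene counts in WT and 1.12, 0.470 and 0.988% in INSL3-KI. Of their 154 genes tested, 90 were called lower and none higher, against 2.34% lower among all genes tested. In 141 of them all WT libraries lay above all INSL3-KI libraries, which was so for 21.6% of all genes. The median log2 fold change was -7.68, unmoved when the 21 genes with no count in INSL3-KI were set to their bound, against 0.11 over all genes. DESeq2 called 135 of 155 lower and 1 higher (8.28% and 4.97% of all genes). Without WT1, WT2 and WT3 edgeR called 39, 7 and 30 of the list genes lower, and without KI1, KI2 and KI3 36, 108 and 78.

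Myogenic factors bind the E-box, written CANNTG, and the sequences before 3 muscle genes and before Rxfp2 are shown because these genes stand for the muscle programme and the hormone receptor, with each CANNTG in capitals. They are the 250 bases before the RefSeq start of each gene in GRCm38.p6, read 5′ to 3′ on the strand of the gene. Their positions are chr1:134289754-134290003, plus strand, for Myog, chr8:123894776-123895025, minus strand, for Acta1, chr7:19410844-19411093, plus strand, for Ckm and chr5:150018425-150018674, plus strand, for Rxfp2.
Myog: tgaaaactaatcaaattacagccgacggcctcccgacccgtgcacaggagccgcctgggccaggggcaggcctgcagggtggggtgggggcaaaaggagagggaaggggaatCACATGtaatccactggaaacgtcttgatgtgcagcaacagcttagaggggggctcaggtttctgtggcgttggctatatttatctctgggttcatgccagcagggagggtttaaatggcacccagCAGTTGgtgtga
Acta1: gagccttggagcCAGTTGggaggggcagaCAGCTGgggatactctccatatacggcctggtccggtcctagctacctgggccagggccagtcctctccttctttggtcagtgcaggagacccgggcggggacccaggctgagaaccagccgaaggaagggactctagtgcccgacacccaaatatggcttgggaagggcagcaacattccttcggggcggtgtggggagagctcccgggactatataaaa
Ckm: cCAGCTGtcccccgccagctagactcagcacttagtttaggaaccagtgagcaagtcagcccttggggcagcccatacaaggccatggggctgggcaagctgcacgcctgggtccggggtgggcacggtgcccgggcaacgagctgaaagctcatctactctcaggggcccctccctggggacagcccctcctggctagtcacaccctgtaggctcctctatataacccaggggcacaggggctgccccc
Rxfp2: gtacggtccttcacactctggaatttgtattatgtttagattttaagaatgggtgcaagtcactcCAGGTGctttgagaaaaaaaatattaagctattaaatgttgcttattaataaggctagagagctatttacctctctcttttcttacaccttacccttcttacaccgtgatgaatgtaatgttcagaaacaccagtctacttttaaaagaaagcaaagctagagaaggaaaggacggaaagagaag

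Of the 90 lower muscle genes, 61 had such a sequence in the RefSeq table. CANNTG, which reads alike on both strands, was in 78.7% of these 61 and in 66.0% of all 27025 promoters. Its form CAGCTG, which is counted within CANNTG, was in 36.1% against 12.8%. The MEF2 motif, searched on both strands, was in 21.3% against 3.01%, and the CArG box in 4.92% against 1.40%. Of the printed sequences, those of Acta1 and Ckm hold CAGCTG, that of Acta1 the CArG box and that of Rxfp2 the MEF2 motif. edgeR called none of these genes, so they are not among the 61. Among the 21 white adipocyte list genes with such a sequence, CANNTG was in 76.2%, close to the share of the muscle genes, CAGCTG in 19.0% and the MEF2 motif in none. Among the 12 smooth muscle list genes with one, CANNTG was in 66.7%, CAGCTG in 3 genes, the MEF2 motif in 1 (8.33%) and the CArG box in none. These shares describe letters in a window and are no measure of binding in this tissue.

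The myogenic regulators fell together with the contractile genes, and 10 of the 17 tested were called lower, against 2.34% of all genes. Pax7, which marks satellite cells, the stem cells of muscle, was at 15.9, 16.9 and 17.8 CPM in WT and 0 CPM in every INSL3-KI library (at least 684-fold lower, adjusted p = 0.0023). Myod1, which commits cells to the muscle lineage, was at 111, 91.9 and 93.0 CPM in WT and 0 CPM in every INSL3-KI library (at least 3949-fold lower, adjusted p = 0.0014). Myog, which drives their differentiation, was at 77.6, 119 and 85.3 CPM in WT and 0 CPM in every INSL3-KI library (at least 3842-fold lower, adjusted p = 0.0019). These 3 genes had no count in INSL3-KI, and each bound takes 3 counts in total over the INSL3-KI libraries as the limit that a count of 0 allows, with counting error only. Myf6, which keeps fibres mature, was at 238, 163 and 124 CPM in WT and 0 CPM in every INSL3-KI library (at least 6869-fold lower, adjusted p = 0.0027). Mymk, which fuses myoblasts into fibres, was at 37.5, 51.0 and 25.1 CPM in WT and 0, 0.0566 and 0 CPM in INSL3-KI, 2293-fold lower by its 2 counts, with a 95% Poisson counting interval of 635 to 18937 (adjusted p = 0.0029). Mef2c, a partner of the myogenic factors that other cells also use, was at 809, 475 and 575 CPM in WT and 23.3, 24.9 and 22.0 CPM in INSL3-KI (log2 fold change -4.73 ± 0.29 (SE), adjusted p = 0.0015). Its INSL3-KI libraries were close together and above 0, unlike those of the muscle-specific factors. Myf5, a further commitment factor, was at 12.9, 12.8 and 10.6 CPM in WT and 0, 0.226 and 0 CPM in INSL3-KI and was not called (adjusted p = 0.027). Mef2a, which most cells express, was at 221, 194 and 233 CPM in WT and 150.04, 110.0 and 173 CPM in INSL3-KI, without overlap and without a call (adjusted p = 0.12).

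Of the 21 thick filament genes 13 were called lower (2.34% of all genes), with a median log2 fold change of -10.61. In all 21 every WT library lay above every INSL3-KI library, which was so for 21.6% of all genes. Myh1, a myosin heavy chain of fast fibres, had the highest FPKM of the heavy chains in each WT library, at 2219, 1945 and 1576 FPKM in WT and 0.306, 0.0521 and 0.0846 FPKM in INSL3-KI on this per-length scale. Myh4, the chain of the fastest fibres, was at 5058, 1439.7 and 1273 CPM in WT and 0, 0 and 0.0621 CPM in INSL3-KI, 97018-fold lower by its 3 counts, with a 95% Poisson counting interval of 33198 to 470448 (adjusted p = 0.0036). Myh7, the chain of slow fibres, was at 4538, 1946 and 1520.5 CPM in WT and 0.213, 0 and 0.414 CPM in INSL3-KI (log2 fold change -13.57 ± 1.499 (SE), adjusted p = 0.0062). Genes of fast and slow fibres were both near 0 in every INSL3-KI library. Myh3, the embryonic chain, was at 121, 311 and 77.2 CPM in WT and 0.213, 0.0849 and 0.124 CPM in INSL3-KI (log2 fold change -10.20 ± 0.84 (SE), adjusted p = 0.0027). Myh8, the perinatal chain, was at 2541, 2764 and 2261 CPM in WT and 1.44, 0.141 and 0.310 CPM in INSL3-KI (log2 fold change -11.96 ± 1.20 (SE), adjusted p = 0.0047). The chains of immature fibres were therefore near 0 as well. Ttn, the giant spring of the sarcomere, was at 6656, 3068 and 2919.8 CPM in WT and 1.12, 0.594 and 0.869 CPM in INSL3-KI (log2 fold change -12.25 ± 0.77 (SE), adjusted p = 0.0015). Mybph, a myosin-binding protein, was at 266, 294 and 317 CPM in WT and 0 CPM in every INSL3-KI library (at least 11905-fold lower, adjusted p = 0.0014).

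Of the 17 thin filament genes 11 were called lower (2.34% of all genes), with a median log2 fold change of -9.82. Tnnt3, a fast troponin, was at 8703, 4944 and 4007 CPM in WT and 0.665, 0.368 and 0.558 CPM in INSL3-KI (log2 fold change -13.43 ± 0.79 (SE), adjusted p = 0.0014). Lmod2, which lengthens the filament, was at 656, 397 and 273 CPM in WT and 0 CPM in every INSL3-KI library (at least 17188-fold lower, adjusted p = 0.004). Lmod3, which helps to build it, was at 474, 251 and 198 CPM in WT and 0 CPM in every INSL3-KI library (at least 11914-fold lower, adjusted p = 0.0043). Acta1, the skeletal alpha-actin whose promoter is printed, had another pattern, with a residue in 2 of the INSL3-KI libraries. It was at 52457, 36553 and 31059 CPM in WT and 805, 11.7 and 533 CPM in INSL3-KI, so KI1 and KI3 kept a level that KI2 did not (log2 fold change -6.47 ± 1.76 (SE), adjusted p = 0.062). Tpm2, a tropomyosin that smooth muscle also makes, was at 9719, 5870.1 and 5633 CPM in WT and 1776, 139 and 1143 CPM in INSL3-KI (adjusted p = 0.1). Des, the intermediate filament of all muscle, was at 6137, 4310.1 and 4136 CPM in WT and 714, 90.3 and 791 CPM in INSL3-KI (adjusted p = 0.062). These 3 genes were not called, and the libraries that kept more of them were those rich in smooth muscle transcripts, whose part in the residue was not tested.

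At the Z-disc, where thin filaments anchor, 17 of 24 genes were called lower, against 2.34% of all genes. The median log2 fold change was -10.91, or -10.18 with undetected genes at their bound. Csrp3, a sensor of stretch, was at 1109, 630.3 and 614 CPM in WT and 0 CPM in every INSL3-KI library (at least 30699.5-fold lower, adjusted p = 0.0027). Xirp2, an actin-binding protein of the fibre ends, was at 1412, 743 and 664 CPM in WT and 0.0532, 0 and 0 CPM in INSL3-KI, 54748-fold lower by its 2 counts, with a 95% Poisson counting interval of 15156 to 452075 (adjusted p = 0.0017). Actn2, the alpha-actinin of the Z-disc, was at 2868, 1645 and 1713 CPM in WT and 0, 0.0849 and 0.0621 CPM in INSL3-KI (log2 fold change -15.26 ± 0.98 (SE), adjusted p = 0.0015). Each of these genes had 0 counts in at least 1 INSL3-KI library. Trim54, a muscle ubiquitin ligase, was at 298, 124 and 141 CPM in WT and 0 CPM in every INSL3-KI library (at least 7244-fold lower, adjusted p = 0.0049). Fbxo32, a ubiquitin ligase of muscle wasting that other tissues also make, was at 174, 103 and 94.6 CPM in WT and 167, 10.3 and 244 CPM in INSL3-KI (log2 fold change 0.18 ± 0.97 (SE), adjusted p = 0.91). For Fbxo32 KI3 lay above, KI1 inside and KI2 below the WT range.

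**Figure D2:**
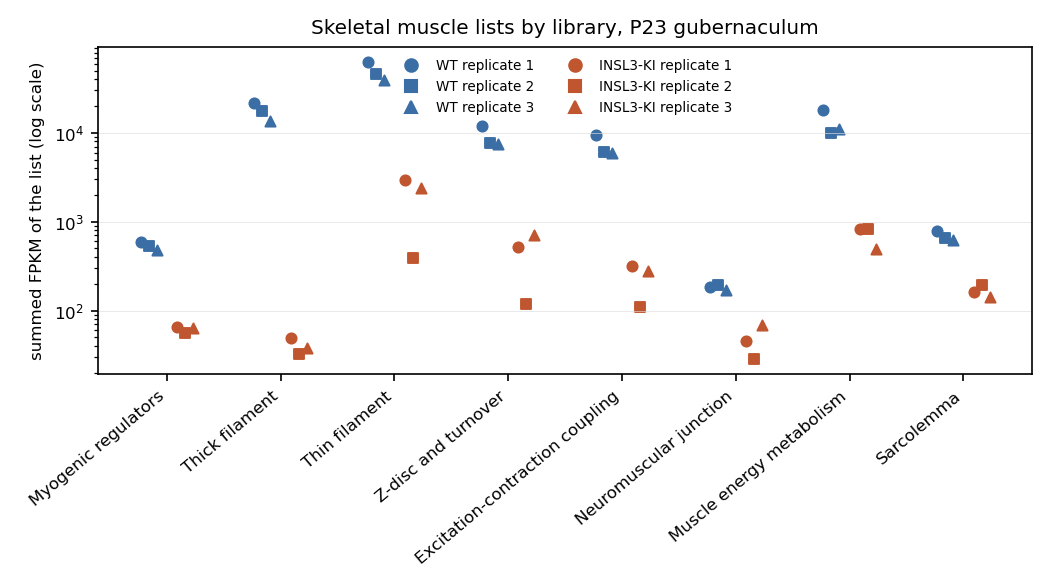
Summed FPKM of each of the 8 skeletal muscle lists on a log scale, with 1 symbol per library (WT blue, INSL3-KI orange, symbol shape by replicate number). Every WT library lies above every INSL3-KI library in each list, and for the thick filament WT sums lie between 13619 and 21379 FPKM and INSL3-KI sums between 32.5 and 49.6 FPKM.

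Excitation-contraction coupling, the release of calcium that follows the signal of the nerve, had 18 of 26 genes called lower (2.34% of all genes). The median was -7.56 on the log2 scale. Cacna1s, the voltage sensor of the transverse tubule, was at 725, 448 and 446 CPM in WT and 0 CPM in every INSL3-KI library (at least 21237-fold lower, adjusted p = 0.0021). Ryr1, the calcium release channel it opens, was at 1305, 628 and 886 CPM in WT and 0.452, 0.594 and 0.579 CPM in INSL3-KI (log2 fold change -10.75 ± 0.48 (SE), adjusted p = 0.0014). Trdn, which holds the channel to its calcium store, was at 925, 560.3 and 505 CPM in WT and 0 CPM in every INSL3-KI library (at least 26003-fold lower, adjusted p = 0.0025). Sensor, channel and anchor all fell. Atp2a1, the pump that returns calcium in fast fibres, was at 14918, 7974 and 9071 CPM in WT and 1.17, 0.509 and 0.600 CPM in INSL3-KI (log2 fold change -13.77 ± 0.95 (SE), adjusted p = 0.0018). Its relative Atp2a2 of slow, cardiac and smooth muscle was at 976, 694 and 924 CPM in WT and 788, 257 and 506 CPM in INSL3-KI, with KI1 inside the WT range (adjusted p = 0.28). Pvalb, a calcium buffer of fast fibres, was at 2609.8, 1121 and 768 CPM in WT and 0.0532, 0 and 0 CPM in INSL3-KI, 85679-fold lower by its 2 counts, with a 95% Poisson counting interval of 23718 to 707477 (adjusted p = 0.0024). Pvalb thus followed Atp2a1, while Jph2, which ties the cell membrane to the calcium store in muscle of several kinds, was still measured in INSL3-KI. Jph2 was at 559, 322 and 419 CPM in WT and 271, 29.9 and 163 CPM in INSL3-KI, lowest in KI2 (adjusted p = 0.22).

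At the neuromuscular junction 8 of 13 genes were called lower (2.34% of all genes), with a median of -6.23 on the log2 scale. Chrnd, the delta subunit of the acetylcholine receptor, was at 14.8, 16.1 and 19.4 CPM in WT and 0 CPM in every INSL3-KI library (at least 685-fold lower, adjusted p = 0.0027). Chrne, its adult epsilon subunit, was at 12.6, 8.17 and 6.31 CPM in WT and 0 CPM in every INSL3-KI library (at least 354-fold lower, adjusted p = 0.0068). Rapsn, which clusters the receptor, was at 49.8, 40.2 and 37.6 CPM in WT and 0.319, 0.396 and 0.331 CPM in INSL3-KI (log2 fold change -6.92 ± 0.24 (SE), adjusted p = 0.00092). These postsynaptic genes were at or close to 0 in all INSL3-KI libraries. Agrn, the clustering signal, which many epithelia and nerves also make, was at 66.5, 72.1 and 83.5 CPM in WT and 161, 129 and 179.7 CPM in INSL3-KI (log2 fold change 1.08 ± 0.18 (SE), adjusted p = 0.021). Ncam1, an adhesion molecule of muscle, nerve and other cells, was at 40.7, 58.3 and 51.2 CPM in WT and 77.5, 6.28 and 114 CPM in INSL3-KI (adjusted p = 0.78). Agrn lay above WT in every INSL3-KI library without being called by edgeR, and Ncam1 lay on both sides of WT.

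Muscle energy metabolism had 9 of 21 genes called lower by edgeR and 18 by DESeq2 (2.34% and 8.28% of all genes). Ampd1, the muscle AMP deaminase, was at 574, 292 and 258 CPM in WT and 0 CPM in every INSL3-KI library (at least 14509-fold lower, adjusted p = 0.0041). Cox6a2, a muscle subunit of cytochrome c oxidase, was at 464, 245 and 215 CPM in WT and 0 CPM in every INSL3-KI library (at least 11960.5-fold lower, adjusted p = 0.0038). Ckm, the muscle creatine kinase whose promoter is printed, was at 11964, 6457 and 6713 CPM in WT and 92.6, 0 and 52.7 CPM in INSL3-KI (log2 fold change -7.43 ± 2.36 (SE), adjusted p = 0.089). Ckm was not called, and its INSL3-KI libraries ran from 0 in KI2 to a clear level in KI1. Slc2a4, the insulin-responsive glucose transporter of muscle and fat, was at 491, 173 and 224 CPM in WT and 188, 174 and 65.0 CPM in INSL3-KI, with overlap (adjusted p = 0.24). Of 15 sarcolemma genes 4 were called lower by edgeR and 9 by DESeq2, against the same shares of all genes. Cav3, the muscle caveolin, was at 222, 145 and 139 CPM in WT and 0.905, 1.02 and 0.538 CPM in INSL3-KI (log2 fold change -7.68 ± 0.40 (SE), adjusted p = 0.0014). Dmd, the dystrophin gene, which smooth muscle and other cells also use, was at 166, 123 and 140.0 CPM in WT and 103, 47.1 and 74.4 CPM in INSL3-KI (adjusted p = 0.095). Cav3 was near 0 in INSL3-KI, while Dmd lay apart by a smaller margin and was not called. Mstn, the growth inhibitor that muscle makes, was at 593, 340.0 and 252 CPM in WT and 0.0532, 0 and 0 CPM in INSL3-KI, 23012-fold lower by its 2 counts, with a 95% Poisson counting interval of 6371 to 190022 (adjusted p = 0.0017). In the cardiac list Nppa and Nppb, the natriuretic peptides of heart, were at or near 0 in all libraries, and of its 6 genes tested Myl4, also a gene of immature skeletal muscle, was called lower, at 63.1, 118 and 77.4 CPM in WT and 1.04, 2.94 and 1.49 CPM in INSL3-KI (log2 fold change -5.56 ± 0.53 (SE), adjusted p = 0.0042).

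Mesothelial markers fell as well, with 6 of 8 called lower, against 2.34% of all genes, and a median log2 fold change of -4.60. Msln, mesothelin, was at 182, 183 and 86.0 CPM in WT and 1.89, 1.90 and 1.74 CPM in INSL3-KI (log2 fold change -6.35 ± 0.39 (SE), adjusted p = 0.0015). Upk3b, a uroplakin of mesothelium, was at 285, 315 and 179 CPM in WT and 13.4, 11.1 and 12.0 CPM in INSL3-KI (log2 fold change -4.42 ± 0.28 (SE), adjusted p = 0.0015). Lrrn4 was at 78.5, 155 and 80.8 CPM in WT and 4.31, 4.24 and 2.63 CPM in INSL3-KI (log2 fold change -4.81 ± 0.41 (SE), adjusted p = 0.0029). The INSL3-KI values of these markers were close together, low and above 0 in every library. Bnc1, Upk1b and Muc16 were also called (adjusted p = 0.0033, 0.0047 and 0.0061). Wt1, a transcription factor of mesothelium, was at 39.5, 53.9 and 38.5 CPM in WT and 3.51, 13.0 and 12.4 CPM in INSL3-KI, apart but not called (adjusted p = 0.044). Without WT1, WT2 and WT3 2, 0 and 4 markers were called, and without KI1, KI2 and KI3 0, 6 and 4.

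Tendon genes had 2 of 7 called lower, against 2.34% of all genes. Scx, the transcription factor of tendon cells, was at 39.3, 35.4 and 27.5 CPM in WT and 0.479, 0.849 and 1.26 CPM in INSL3-KI (log2 fold change -5.29 ± 0.43 (SE), adjusted p = 0.0027). Thbs4, a matrix protein of the muscle-tendon junction, was at 201, 297 and 254 CPM in WT and 2.63, 0.623 and 1.59 CPM in INSL3-KI (log2 fold change -7.27 ± 0.63 (SE), adjusted p = 0.0032). Both were near 0 in every INSL3-KI library. Of 15 genes of Schwann cells, which wrap nerve fibres, the median was -1.57 on the log2 scale. Fa2h, which makes myelin lipids, was at 10.2, 6.37 and 7.38 CPM in WT and 0.0798, 0.113 and 0.0827 CPM in INSL3-KI (log2 fold change -6.40 ± 0.43 (SE), adjusted p = 0.0017). Mbp, a further myelin protein, was at 139, 124 and 129 CPM in WT and 33.0, 12.6 and 20.9 CPM in INSL3-KI (adjusted p = 0.013). Both lay below WT in every INSL3-KI library, although of the pair only Fa2h was called. Sox10, the factor that defines the lineage, was at 10.9, 8.73 and 19.5 CPM in WT and 4.68, 2.69 and 5.75 CPM in INSL3-KI, also apart (adjusted p = 0.068). Uchl1, abundant in nerve and present in other cells, was at 226, 82.3 and 57.9 CPM in WT and 1.49, 6.51 and 2.05 CPM in INSL3-KI (log2 fold change -5.19 ± 0.88 (SE), adjusted p = 0.02). Of the 8 neuron genes tested edgeR called none, with 3 lower and 0 higher at an unadjusted p-value under 0.05 (16.8% and 16.6% of all genes). DESeq2 called 3 lower and 0 higher (8.28% and 4.97% of all genes). The synaptic gene Snap25 was at or near 0 in all libraries.

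Smooth muscle genes separated the INSL3-KI libraries from each other. The list summed to 1847, 1479.7 and 2682 FPKM in WT and 6744, 971 and 6909 FPKM in INSL3-KI, so KI1 and KI3 lay above and KI2 below all WT libraries. Of 16 members tested edgeR called none, with 2 lower and 4 higher at an unadjusted p-value under 0.05 (16.8% and 16.6% of all genes). DESeq2 called 1 lower and 2 higher (8.28% and 4.97% of all genes), and the median log2 fold change was 1.86. Myh11, the smooth muscle myosin, was at 90.8, 111 and 926 CPM in WT and 5555, 326 and 3818 CPM in INSL3-KI (log2 fold change 3.10 ± 1.38 (SE), adjusted p = 0.17). Acta2, smooth muscle alpha-actin, was at 332, 675 and 1782 CPM in WT and 4410.1, 789 and 4336 CPM in INSL3-KI (adjusted p = 0.22). Myocd, the coactivator that turns these genes on, was at 0.410, 1.13 and 4.42 CPM in WT and 48.4, 5.32 and 23.1 CPM in INSL3-KI (adjusted p = 0.087). In all 3 genes WT3 was the highest WT library and KI2 much the lowest INSL3-KI library. Hspb6, a small heat shock protein of skeletal as well as smooth muscle, was at 2324, 879 and 902 CPM in WT and 177, 19.2 and 148 CPM in INSL3-KI, the reverse order (adjusted p = 0.055).

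Duct epithelium and epididymis showed the same division with larger gaps. The 22 duct epithelium genes summed to 72.6, 121 and 241 FPKM in WT and 1207, 5.91 and 1958 FPKM in INSL3-KI. The 27 epididymis genes summed to 0.489, 0.385 and 706 FPKM in WT and 1604, 3.27 and 5995 FPKM in INSL3-KI. KI1 and KI3 were high, WT3 was intermediate for the epididymis, and KI2, WT1 and WT2 were low or near 0. Epcam, an adhesion molecule of epithelia, was at 0.149, 0.711 and 59.0 CPM in WT and 251, 0.255 and 479.7 CPM in INSL3-KI (log2 fold change 3.61 ± 2.65 (SE), adjusted p = 0.37). Pax8, a transcription factor of the Wolffian duct and its derivatives, was at 0, 0 and 8.60 CPM in WT and 138, 0 and 167 CPM in INSL3-KI (adjusted p = 0.26). Crisp1 (chr17:40293758-40319207, minus strand), a secreted protein of the epididymis that coats sperm, was at 0, 0.118 and 967 CPM in WT and 2164, 0.651 and 6463 CPM in INSL3-KI (log2 fold change 3.16 ± 3.54 (SE), adjusted p = 0.56). None was called, and the INSL3-KI libraries differed from each other more than the groups did. Of the 22 duct genes, 9 had INSL3-KI libraries both above and below the whole WT range, against 19.7% of all genes tested. edgeR called none of the duct genes, with 1 lower and 0 higher at an unadjusted p-value under 0.05 (16.8% and 16.6% of all genes). DESeq2 called none of them, and without KI2 edgeR called 2 higher (0.887% of all genes). Of the 9 epididymis genes with enough reads, neither tool called any and none had an unadjusted p-value under 0.05. Krt5, a keratin of basal cells in layered epithelia, was at 0, 0 and 16.9 CPM in WT and 66.3, 0 and 94.7 CPM in INSL3-KI. Upk2, a uroplakin of the bladder, was at 0, 0 and 0.814 CPM in WT and 4.34, 0 and 5.15 CPM in INSL3-KI. Both followed the duct genes at lower levels.

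White adipocyte genes were highest in KI2 and KI1. Adipoq (chr16:23146536-23158028, plus strand), which encodes the hormone adiponectin, was at 0.410, 0.237 and 0 CPM in WT and 779, 1791 and 58.7 CPM in INSL3-KI (log2 fold change 12.01 ± 1.97 (SE), adjusted p = 0.019). Plin1, the coat of the fat droplet, was at 1.04, 0 and 0.291 CPM in WT and 831, 1690.1 and 69.3 CPM in INSL3-KI (log2 fold change 10.95 ± 2.04 (SE), adjusted p = 0.025). Cfd, adipsin, was at 3.47, 0.296 and 0 CPM in WT and 4389, 5155 and 182 CPM in INSL3-KI (log2 fold change 11.35 ± 2.58 (SE), adjusted p = 0.041). The WT libraries were near 0 and the groups apart in all 3 genes, while the INSL3-KI libraries differed among themselves by 30.5-fold, 24.4-fold and 28.3-fold. Of the 28 genes, 21 were higher in every INSL3-KI library than in any WT library, against 19.5% of all genes, and the median log2 fold change was 4.89. edgeR called 1 of them at an adjusted p-value under 0.01 and 19 at 0.05, and DESeq2 called 23, against 0.211%, 3.55% and 4.97% of all genes. Without KI3 edgeR called 14, and without any other single library 0. The called gene was Slc25a10, the mitochondrial dicarboxylate carrier, at 15.6, 18.8 and 33.5 CPM in WT and 348, 467 and 176 CPM in INSL3-KI (log2 fold change 3.87 ± 0.50 (SE), adjusted p = 0.0098). Pparg, the receptor that drives fat cell differentiation, was at 2.69, 2.87 and 3.72 CPM in WT and 120.1, 299 and 9.27 CPM in INSL3-KI (adjusted p = 0.039). Fasn, the fatty acid synthase, was at 41.0, 49.5 and 96.7 CPM in WT and 5442, 2975 and 508 CPM in INSL3-KI (adjusted p = 0.025). KI1 exceeded KI2 for Fasn but not for Pparg, and KI3 was lowest of the INSL3-KI libraries in both. Car3, a carbonic anhydrase of both muscle and fat, was at 17383, 9509 and 5977 CPM in WT and 9314, 22322 and 849.8 CPM in INSL3-KI, on both sides of WT (adjusted p = 0.99). The summed level of the list was at 8330.1, 5569 and 3906 FPKM in WT and 24518, 42004 and 2293 FPKM in INSL3-KI, so KI1 and KI2 lay above and KI3 below every WT library. Car3 alone made up 7801, 5089 and 3258 FPKM of these sums in WT and 5577, 12962 and 588 FPKM in INSL3-KI. Of the brown fat list Ucp1, the uncoupling protein, was at 0 CPM in every WT library and 24.7, 0 and 0.124 CPM in INSL3-KI. Zic1, which marks precursors of brown fat and of trunk muscle, was called lower, at 9.33, 6.22 and 10.8 CPM in WT and 0 CPM in every INSL3-KI library (at least 354-fold lower, adjusted p = 0.0059).

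Vessel and blood genes were highest in KI2. Cdh5, the endothelial cadherin, was at 97.3, 132 and 166 CPM in WT and 211, 698 and 48.7 CPM in INSL3-KI (adjusted p = 0.34), and in all 17 endothelial genes KI2 was the highest INSL3-KI library. INSL3-KI libraries stood on both sides of WT in 15 of the 17, against 19.7% of all genes. Neither edgeR nor DESeq2 called any of these genes. By edgeR 0 were lower and 1 higher at an unadjusted p-value under 0.05 (16.8% and 16.6% of all genes). Their median log2 fold change was 1.01, or -0.37 without KI2, where 2 were called lower (3.21% of all genes). The red blood cell list summed to 518, 1384 and 2679 FPKM in WT and 839, 8109 and 470.2 FPKM in INSL3-KI. The sign of the endothelial difference was thus set by KI2, which also held the most haemoglobin transcripts. Rgs5, a pericyte gene, was at 268, 373 and 511 CPM in WT and 163, 794 and 95.2 CPM in INSL3-KI, again highest in KI2. C1qa, a complement gene of resident macrophages, was at 25.3, 71.2 and 42.3 CPM in WT and 19.9, 76.8 and 36.2 CPM in INSL3-KI, with overlap.

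**Figure D3:**
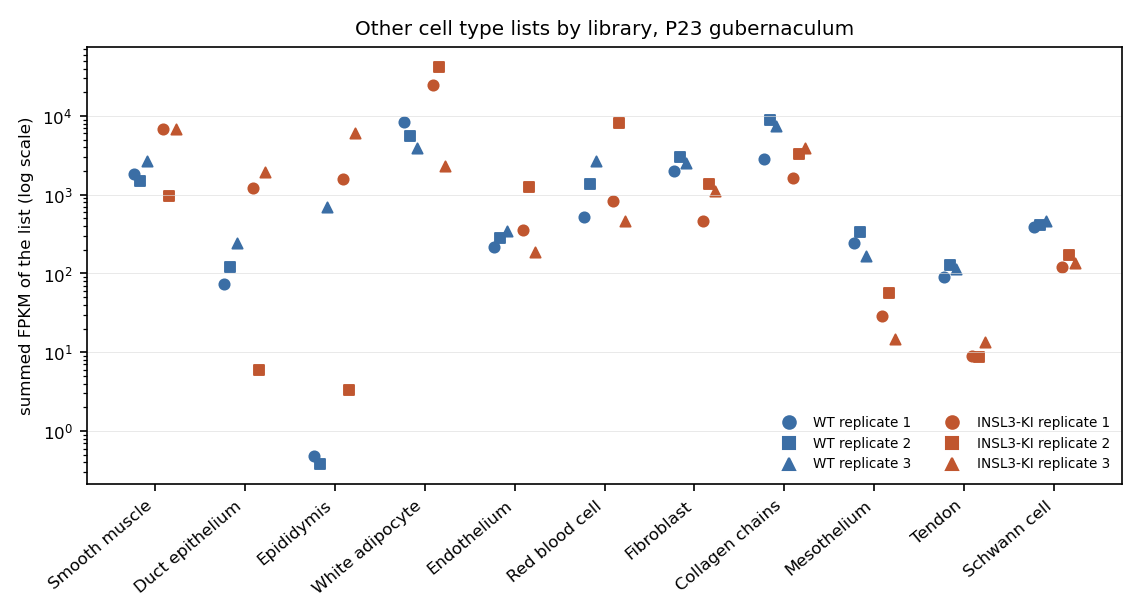
Summed FPKM of 11 further cell type lists on a log scale, with 1 symbol per library (WT blue, INSL3-KI orange, symbol shape by replicate number). The INSL3-KI libraries lie together below WT for mesothelium and Schwann cells, whereas for duct epithelium KI2 stands at 5.91 FPKM and KI1 and KI3 at 1207 and 1958 FPKM.

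Genes that mark position along the body showed several patterns. Pitx1, a factor of the hindlimb field, was at 34.0, 43.7 and 33.8 CPM in WT and 0.373, 0 and 0.827 CPM in INSL3-KI (adjusted p = 0.023). Tbx4, which acts in the same field, was at 14.0, 12.3 and 10.5 CPM in WT and 0.825, 0 and 0.621 CPM in INSL3-KI (adjusted p = 0.057). Both genes were low in KI1, KI2 and KI3 alike, without a call. Hoxc10, a posterior Hox gene, was at 84.0, 51.9 and 50.2 CPM in WT and 8.28, 5.57 and 12.8 CPM in INSL3-KI, also without overlap (adjusted p = 0.012). Hoxa10, which mice need for testis descent, was at 67.9, 83.4 and 80.4 CPM in WT and 81.9, 6.42 and 123 CPM in INSL3-KI (adjusted p = 0.93). Hoxa11, its neighbour, was at 33.4, 49.7 and 51.3 CPM in WT and 65.2, 1.16 and 52.3 CPM in INSL3-KI (adjusted p = 0.93). For Hoxa10 and Hoxa11 KI1 and KI3 lay within or above the WT range and KI2 far below it, so the fitted log2 fold changes of -0.13 and -0.18 describe no single library. Hoxd13, the most posterior of its cluster, was at 0, 0 and 3.89 CPM in WT and 27.6, 0 and 13.1 CPM in INSL3-KI, the order of the duct genes. Hoxc8, a more anterior gene, was at 17.8, 13.6 and 9.62 CPM in WT and 10.8, 47.8 and 4.24 CPM in INSL3-KI, highest in KI2.

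**Figure D4:**
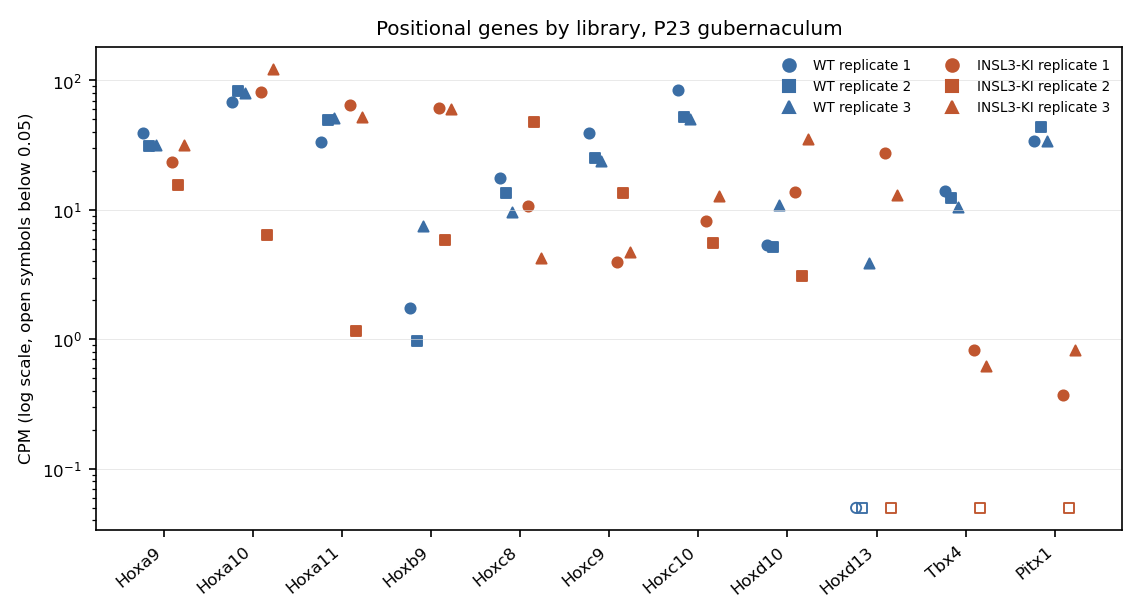
CPM of 11 positional genes on a log scale, with 1 symbol per library (WT blue, INSL3-KI orange, symbol shape by replicate number, open symbols for values below 0.05 CPM). Pitx1 and Tbx4 lie below WT in every INSL3-KI library, and KI2 stands apart from KI1 and KI3 at 6.42 CPM for Hoxa10 and 1.16 CPM for Hoxa11.

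Connective tissue genes had negative medians, but none of the 14 fibroblast, 33 collagen and 28 matrix genes tested was called by edgeR. The median log2 fold changes were -1.15, -1.08 and -1.04, against 0.11 for all genes. At an adjusted p-value under 0.05, 4, 5 and 5 were lower, at an unadjusted one 7, 15 and 17 were, and DESeq2 called 5, 11 and 8 lower, against 7.24%, 16.8% and 8.28% of all genes. Fibroblasts are the main makers of these proteins. Dcn, decorin, was at 2930.2, 2930.1 and 2239 CPM in WT and 248, 799 and 748 CPM in INSL3-KI (log2 fold change -2.17 ± 0.53 (SE), adjusted p = 0.048). Lum, lumican, was at 508, 1006 and 614 CPM in WT and 81.3, 189 and 139 CPM in INSL3-KI (log2 fold change -2.38 ± 0.43 (SE), adjusted p = 0.024). In both of these proteoglycans of collagen fibrils the groups lay apart and KI1 was lowest. Col1a2, a chain of fibrillar collagen, was at 4344, 12217 and 9716 CPM in WT and 1145, 2461 and 3841 CPM in INSL3-KI (log2 fold change -1.82 ± 0.71 (SE), adjusted p = 0.14). Col3a1, a second fibrillar chain, was at 5308, 13596 and 13962 CPM in WT and 1907, 5216 and 5424 CPM in INSL3-KI (adjusted p = 0.23). WT1 was the lowest WT library for both chains and lay inside the INSL3-KI range for Col3a1. Col11a1, a minor fibrillar chain, was at 216, 239 and 84.2 CPM in WT and 4.74, 6.48 and 15.9 CPM in INSL3-KI (adjusted p = 0.016). Col4a1, of basement membranes, was at 548, 1203 and 1458 CPM in WT and 1887, 3333 and 1196 CPM in INSL3-KI, with overlap (adjusted p = 0.26).

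Of the 37 genes of the cAMP, PKA and CREB route downstream of RXFP2, 3 were called lower and none higher (2.34% and 0.211% of all genes), with a median log2 fold change of -0.13, which was positive when libraries were scaled by their totals and on the log2(FPKM + pseudocount) scale. Adcy2, an adenylyl cyclase, was at 56.1, 41.5 and 56.7 CPM in WT and 4.23, 3.85 and 3.41 CPM in INSL3-KI (log2 fold change -3.75 ± 0.21 (SE), adjusted p = 0.0014). Akap6, which anchors PKA in muscle, was at 208, 131 and 124 CPM in WT and 4.36, 6.11 and 4.70 CPM in INSL3-KI (log2 fold change -4.93 ± 0.30 (SE), adjusted p = 0.0015). Pde10a, a phosphodiesterase, was at 32.5, 35.0 and 26.3 CPM in WT and 7.61, 7.13 and 5.50 CPM in INSL3-KI (log2 fold change -2.21 ± 0.22 (SE), adjusted p = 0.0045). Each of these 3 had its INSL3-KI libraries close together and apart from WT. Gnas, the alpha subunit of Gs, was at 2135, 2092 and 2109.7 CPM in WT and 979, 1223 and 1214 CPM in INSL3-KI (log2 fold change -0.89 ± 0.29 (SE), adjusted p = 0.09). Prkaca, the main catalytic subunit of PKA, was at 228, 215 and 230.3 CPM in WT and 118, 153 and 71.8 CPM in INSL3-KI (log2 fold change -0.97 ± 0.29 (SE), adjusted p = 0.078). Creb1, the transcription factor at the end of the route, was at 41.8, 39.9 and 41.3 CPM in WT and 68.8, 62.2 and 65.4 CPM in INSL3-KI (log2 fold change 0.68 ± 0.12 (SE), adjusted p = 0.025). Gnas and Prkaca lay below and Creb1 above WT in every INSL3-KI library, none of them called by edgeR. Prkar2b, a PKA subunit abundant in fat, was at 4.29, 7.11 and 8.75 CPM in WT and 469, 764 and 44.2 CPM in INSL3-KI, the order of the white fat genes (adjusted p = 0.026). DESeq2 called 6 of 37 lower and 5 higher (8.28% and 4.97% of all genes).

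Of 30 Wnt pathway genes, 27 BMP and TGF-beta genes and 15 Notch genes, 1, 1 and 0 were called lower and none higher by edgeR (2.34% and 0.211% of all genes). The Notch genes had 1 lower and 2 higher at an unadjusted p-value under 0.05 (16.8% and 16.6% of all genes). DESeq2 called 1 lower and 1 higher of them (8.28% and 4.97% of all genes). Sfrp5, a secreted Wnt inhibitor, was the Wnt gene called, at 14.4, 15.3 and 17.2 CPM in WT and 2.66, 2.86 and 2.57 CPM in INSL3-KI (log2 fold change -2.53 ± 0.22 (SE), adjusted p = 0.0032). Rspo1, a secreted enhancer of Wnt signals, was at 69.1, 76.8 and 37.8 CPM in WT and 3.70, 8.15 and 7.61 CPM in INSL3-KI (log2 fold change -3.24 ± 0.43 (SE), adjusted p = 0.0105). Axin2, a common readout of canonical Wnt signalling, was at 31.5, 28.3 and 34.7 CPM in WT and 25.1, 42.8 and 55.3 CPM in INSL3-KI (adjusted p = 0.4). Sfrp5 and Rspo1 lay apart, and Axin2 overlapped. Mstn, described with muscle, was the TGF-beta family gene called. Nog, a secreted BMP inhibitor, was at 27.3, 11.6 and 9.97 CPM in WT and 2.02, 1.19 and 2.19 CPM in INSL3-KI (log2 fold change -3.17 ± 0.52 (SE), adjusted p = 0.019). Id3, a target of BMP signals, was at 81.5, 72.0 and 94.4 CPM in WT and 158, 156 and 117 CPM in INSL3-KI, also apart but on the other side (adjusted p = 0.046). Dlk1, a Notch ligand of growing muscle and fat precursors, was at 7.95, 68.9 and 178 CPM in WT and 12.4, 10.7 and 22.5 CPM in INSL3-KI, and WT1 lay under all of INSL3-KI (adjusted p = 0.15).

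The 32 higher genes had log2 fold changes between 1.13 and 4.91 and a median SD of log2 CPM among INSL3-KI libraries of 0.22. A small SD is part of what the test asks for, so this describes the calls and is no separate finding. By fold, among genes with a mean of at least 10 CPM, the first was Ralgapa2, which encodes a subunit of a Ral GTPase activator, at 5.75, 5.74 and 8.11 CPM in WT and 137, 131 and 42.1 CPM in INSL3-KI (log2 fold change 3.98 ± 0.52 (SE), adjusted p = 0.0097). Gsta3, a glutathione transferase, was at 7.65, 5.48 and 10.8 CPM in WT and 149, 149 and 77.8 CPM in INSL3-KI (log2 fold change 3.97 ± 0.40 (SE), adjusted p = 0.0047). Slc5a3, the sodium/myo-inositol transporter, was at 6.57, 6.37 and 12.9 CPM in WT and 77.6, 70.1 and 77.3 CPM in INSL3-KI (log2 fold change 3.12 ± 0.33 (SE), adjusted p = 0.0056). In Slc5a3 the INSL3-KI libraries were nearly equal, whereas in Ralgapa2 and Gsta3 KI3 was the lowest. Adora1, an adenosine receptor, was at 5.52, 5.86 and 9.53 CPM in WT and 81.4, 39.2 and 50.2 CPM in INSL3-KI (log2 fold change 3.03 ± 0.38 (SE), adjusted p = 0.0088). Aco1, the cytosolic aconitase that senses iron, was at 39.8, 48.7 and 74.4 CPM in WT and 364, 415 and 274 CPM in INSL3-KI (log2 fold change 2.69 ± 0.31 (SE), adjusted p = 0.007). Acat2, an acetyl-CoA acetyltransferase, was at 15.6, 16.4 and 23.8 CPM in WT and 114, 115 and 75.6 CPM in INSL3-KI (log2 fold change 2.45 ± 0.27 (SE), adjusted p = 0.006). Slc25a10 stands next to Gsta3 in this order and was described with fat. Zfp398, Cpeb2 and Entpd6 complete the first 10, with log2 fold changes of 2.88, 2.12 and 2.09 (adjusted p = 0.0062, 0.0077 and 0.0043).

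The 10 genes that varied most among the INSL3-KI libraries, by the SD of log2 CPM among genes with a mean of at least 10 CPM, were Crisp1, Serpina1f, Akr1b7, Defb42, Cuzd1, Serpina16, Ltf, Pcp4, Pax8 and 2300002M23Rik. Their SD lay between 6.59 and 7.19 on the log2 scale. Akr1b7, an aldose reductase of the vas deferens and adrenal, was at 0.373, 0 and 33.6 CPM in WT and 4076, 0.821 and 1575 CPM in INSL3-KI. Cuzd1, a secreted epithelial protein, was at 0.560, 0 and 172 CPM in WT and 3.86, 0.113 and 1998 CPM in INSL3-KI. All 10 were at or near 0 in KI2 and high in KI3. Akr1b7 was higher in KI1 than in KI3 and Cuzd1 was found mainly in KI3, so these libraries differed in which duct genes they held.

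The gubernaculum at P8 was sequenced from 3 INSL3-KI and 3 WT libraries as well, and the ages share no library. In a fit of the 4 groups together, 950 genes were lower and 1076 higher in INSL3-KI at P8 (5.88% and 6.66% of 16151 tested). Of the 355 genes lower at P23, 295 were also lower at P8, which is 83.1% of the P23 genes and 31.1% of the P8 genes, and none was higher. Of the 32 genes higher at P23, 21 were higher at P8 (65.6% and 1.95%). The P23 calls here are from the fit of the P23 libraries alone, and the P8 calls from the fit of the 4 groups. The fit of the 4 groups called more genes at P23 too, as given below. The numbers of calls at each age and these shares therefore depend on the fit. Skeletal muscle transcripts were already scarce in INSL3-KI at P8. The 8 muscle lists summed to 46948, 45117 and 42722 FPKM in WT and 4625, 5688 and 6005 FPKM in INSL3-KI at P8. At P23 they summed to 125394, 88578 and 78169 FPKM in WT and 4912, 1754 and 4147 FPKM in INSL3-KI. The WT sums were higher at P23 than at P8, the INSL3-KI sums were not, and the median INSL3-KI effect was -5.96 at P8 and -7.66 at P23 on the log2 scale, with 0 muscle list genes called different between the ages by edgeR, 73 of 155 at an unadjusted p-value under 0.05 (25.5% of all genes).

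At P8 every INSL3-KI library held smooth muscle and duct genes. Smooth muscle genes summed to 941, 803 and 736 FPKM in WT and 9052, 10854 and 10674 FPKM in INSL3-KI at P8. Of the 16 genes 11 were called higher, against 6.66% of all genes. Duct epithelium genes summed to 25.4, 79.9 and 45.5 FPKM in WT and 1196, 1409 and 1206 FPKM in INSL3-KI at P8. At P23 only KI1 and KI3 of the INSL3-KI libraries resembled this. Mesothelium genes summed to 42.3, 158 and 107 FPKM in WT and 65.5, 41.2 and 56.4 FPKM in INSL3-KI at P8. Of the 8 genes 1 was called lower at P8 (5.88% of all genes), and their median effect was -1.22 at P8 and -4.60 at P23. edgeR called 0 mesothelium genes different between the ages, with 7 of 8 at an unadjusted p-value under 0.05 (25.5% of all genes). White adipocyte genes summed to 1067, 1369 and 1259.9 FPKM in WT and 2806, 2972 and 3759 FPKM in INSL3-KI at P8. For fat the P8 groups lay apart and the INSL3-KI libraries were alike, and the biological coefficient of variation at this age was 0.181 in INSL3-KI and 0.196 in WT.

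**Figure D5:**
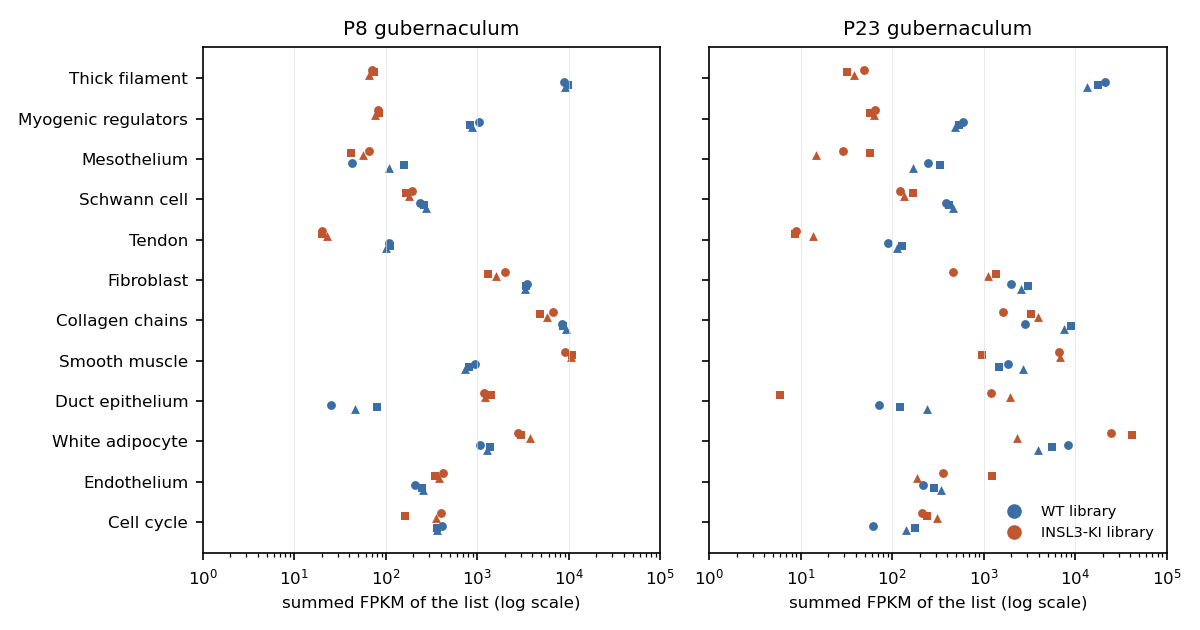
Summed FPKM of 12 gene lists on a log scale at P8 (left) and P23 (right), with 1 symbol per library (WT blue, INSL3-KI orange, symbol shape by replicate number). The INSL3-KI libraries stay together at P8 and spread apart at P23 for smooth muscle, duct epithelium, white adipocyte and endothelium, while the thick filament list is low in every INSL3-KI library at both ages.

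A test of the difference in INSL3-KI effect between the ages called 28 genes with a lower effect at P23 (0.173%) and 14 with a higher one (0.0867%). DESeq2 called 738 and 389. Without WT1, WT2 and WT3 of P23 the counts were 37 and 9, 4 and 1, and 17 and 7, and without KI1, KI2 and KI3 of P23 they were 4 and 3, 216 and 130, and 205 and 250, while leaving out any P8 library gave at most 4 and 1. Mss51, a mitochondrial gene of fast muscle, was at 177, 72.1 and 41.6 FPKM in WT and 0.617, 0.768 and 0.395 FPKM in INSL3-KI at P23. At P8 it was at 0.689, 0.696 and 1.04 FPKM in WT and 0.570, 0.560 and 0.696 FPKM in INSL3-KI (difference -6.97 ± 0.83 (SE) on the log2 scale, adjusted p = 0.0042). WT at P23 lay far above the other groups, which were all near 1 FPKM or under it. Myoc, the gene of myocilin, was at 47.0, 19.5 and 21.8 FPKM in WT and 1.02, 0.437 and 2.38 FPKM in INSL3-KI at P23. At P8 it was at 0.613, 0.583 and 0.461 FPKM in WT and 5.15, 10.4 and 7.64 FPKM in INSL3-KI (difference -8.42 ± 0.86 (SE) on the log2 scale, adjusted p = 0.0036). Its INSL3-KI libraries lay below WT at P23 and above WT at P8. Peg10, an imprinted gene of growing tissue, was at 0.782, 3.001 and 2.35 FPKM in WT and 1.11, 1.59 and 1.33 FPKM in INSL3-KI at P23. At P8 it was at 60.8, 47.0 and 50.6 FPKM in WT and 2.96, 2.70 and 2.90 FPKM in INSL3-KI (difference 3.67 ± 0.49 (SE) on the log2 scale, adjusted p = 0.008). The groups lay apart at P8, when WT expressed the gene highly, and overlapped at P23, when both genotypes were low.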

How the data were processed

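Whole gubernaculum of male mice was sequenced from total RNA with an mRNA library kit, 3 libraries per genotype and age. Per the labels the authors aligned reads with HISAT2 to GRCm38, and the tables they deposited hold unscaled counts for each gene and FPKM, which are scaled to gene length and depth. The counting program and strand setting are not given in the sources used here, so reads of overlapping genes on opposite strands may not be separated. Gene positions are from GENCODE M21.

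Counts of the 6 P23 libraries were filtered with filterByExpr (minimum count 10), scaled by TMM and tested with edgeR 4.0.16 (R 4.3.3) at thresholds taken from the methods of the study. P-values weigh the difference between groups against the spread between libraries of the same group. The difference between ages was an interaction term over 12 libraries. DESeq2 1.42.0, limma 3.58.1 with voom and on log2(FPKM + 1) or log2(FPKM + 0.1), and single libraries left out were alternatives. The test was also run on simulated counts with the same spread for all genes and both groups. That run does not cover the unequal spread of these libraries. CPM are TMM-scaled. Counting intervals and bounds cover counting error only.

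The members and the 44 gene lists were chosen with earlier results of these data known. Genes named are Insl3 and Rxfp2; the 10 called genes of largest fold change in each direction that had no overlap between groups, averaged 10 CPM or more and had a symbol other than a predicted-gene or clone name; for each list the 3 called members of largest fold change, or the 2 of highest mean FPKM where none was called, and further members by role; the 10 genes averaging 10 CPM or more with the largest SD of log2 CPM among INSL3-KI libraries; and the 5 called genes of largest difference between ages in each direction. Results of a few of these genes are not reported here.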

Additional observations from a re-analysis of the deposited data

Results flagged for a closer look

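For 10 genes the INSL3-KI effect differed between P23 and P8 by edgeR's interaction test, and they are the 5 of largest difference in each direction. The difference is the log2 fold change at P23 minus that at P8, from the fit of the 4 groups. Ptprq, a receptor phosphatase, had -10.17 ± 1.16 (SE, adjusted p = 0.008), with 0.550, 1.10 and 0.326 FPKM in WT and 0 FPKM in every INSL3-KI library at P23 and 0.0971, 0.175 and 0.150 FPKM in WT and 0.0743, 0.188 and 0.0926 FPKM in INSL3-KI at P8. Mlip, a lamin-interacting muscle protein, had -7.52 ± 0.65 (SE, adjusted p = 0.0036), with 64.3, 52.0 and 57.1 FPKM in WT and 0 FPKM in every INSL3-KI library at P23 and 35.0, 42.5 and 37.7 FPKM in WT and 0.303, 0.0896 and 0.138 FPKM in INSL3-KI at P8. Both had 0 counts in INSL3-KI at P23, so these fitted differences depend on the prior count. Myoc had -8.42 ± 0.86 (SE, adjusted p = 0.0036) and Mss51 had -6.97 ± 0.83 (SE, adjusted p = 0.0042). Htra4, a serine protease, had -5.87 ± 0.55 (SE, adjusted p = 0.0029), with 2.76, 3.39 and 2.86 FPKM in WT and 0.476, 0.941 and 0.591 FPKM in INSL3-KI at P23 and 0.0893, 0.118 and 0.211 FPKM in WT and 2.03, 2.03 and 1.94 FPKM in INSL3-KI at P8. In the other direction the largest differences were of genes that were lower in INSL3-KI at P8 and closer to WT or above it at P23. Padi2, a peptidylarginine deiminase, had 5.19 ± 0.42 (SE, adjusted p = 0.0024), with 0.470, 0.485 and 0.300 FPKM in WT and 0.534, 0.422 and 0.363 FPKM in INSL3-KI at P23 and 13.6, 11.4 and 12.3 FPKM in WT and 0.475, 0.274 and 0.328 FPKM in INSL3-KI at P8. Fsd1l had 4.60 ± 0.56 (SE, adjusted p = 0.0053), with 5.41, 3.997 and 5.09 CPM in WT and 21.1, 12.5 and 46.2 CPM in INSL3-KI at P23, while in FPKM it was at 2.65, 2.41 and 3.01 FPKM in WT and 2.84, 1.63 and 7.22 FPKM in INSL3-KI at P23 and 9.25, 9.98 and 9.46 FPKM in WT and 2.19, 3.17 and 2.38 FPKM in INSL3-KI at P8, so counts and FPKM differ for this gene, and the cause was not tested. Peg10 had 3.67 ± 0.49 (SE, adjusted p = 0.008), Myzap had 2.87 ± 0.33 (SE, adjusted p = 0.0042) and Shb had 1.92 ± 0.27 (SE, adjusted p = 0.0096).

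The count table also lists 16786 loci without an Ensembl gene, which enter none of the other comparisons and are noted because 1 of them exceeded WT in INSL3-KI. In an edgeR fit of all entries, Ensembl genes included, 2000 of these loci had enough reads. Of these, 1 was higher in INSL3-KI and 36 were lower.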

How the results depend on the processing

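Lower calls outnumbered higher calls under every alternative run except the replicate block, which left no call, but their number moved. The 355 lower and 32 higher genes of edgeR became 1405 and 844 with DESeq2, 1073 and 541 with voom sample weights, 1270 and 740 with the P8 libraries in the fit, 1100 and 540 at an adjusted p-value under 0.05, and 309 and 74 with library totals, where 80.7% of calls were lower in place of 91.7%. The limma test on log2(FPKM + 1) gave 490 and 158, and that on log2(FPKM + 0.1) gave 460 and 154. Leaving out 1 library gave 19 (without WT2) to 499 (without KI2) lower and 0 to 138 higher genes, and, in a count chosen after seeing the data, 7 to 108 lower genes in the muscle lists, again without WT2 and KI2. For the difference between ages, 28 lower and 14 higher, DESeq2 gave 738 and 389, voom sample weights gave 769 and 513, library totals gave 7 higher, and leaving out 1 library gave 0 to 216 and 0 to 250. All 387 calls were also made by DESeq2. Same-numbered WT and INSL3-KI libraries deviated from their group means with correlations of -0.12, 0.34 and 0.46. Those of different number did so with correlations between -0.52 and 0.32. With 3 libraries per group, these correlations cannot settle whether the replicate numbers pair the samples. A replicate block left 0 lower and 0 higher genes, and 0 and 1 for the age difference.

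Of 784 values of the 56 called genes named, over 14 alternatives, none changed sign, 548 stayed past the threshold and 236 did not, 56 of them under the replicate block and 50 without WT2. Of 45 list medians, the joined muscle lists included, 30 kept their sign throughout. Single genes that changed sign were all uncalled. With library totals Car3 came to 0.24, Hoxa10 to 0.22 and Hoxa11 to 0.13. On the log2(FPKM + 1) and log2(FPKM + 0.1) scales Fbxo32 came to -0.19 and -0.35 and Ncam1 to -0.70 and -0.91. Under the replicate block Fbxo32 came to -0.54 and Ncam1 to -0.15. Axin2 came to -0.073 with voom sample weights. With 1 library left out Car3 lay between -1.17 and 0.52, Cdh5 between -0.092 and 1.77, Fbxo32 between -0.54 and 0.675, Hoxa10 between -0.87 and 0.34, Hoxa11 between -0.80 and 0.32 and Ncam1 between -0.33 and 0.87. The cause of these changes was not tested.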

Other observations

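Of 20 cell cycle genes tested, 9 were higher in every INSL3-KI library than in any WT library, against 19.5% of all genes. Their median log2 fold change was 0.75, and neither edgeR nor DESeq2 called any. At an unadjusted p-value under 0.05 edgeR had 0 lower and 4 higher (16.8% and 16.6% of all genes). Ccna2, a cyclin of DNA replication, was at 12.1, 54.7 and 30.2 CPM in WT and 42.7, 62.5 and 62.2 CPM in INSL3-KI (edgeR adjusted p = 0.34). Pcna, the clamp of the replication fork, was at 39.1, 54.9 and 63.3 CPM in WT and 77.6, 81.1 and 83.5 CPM in INSL3-KI (edgeR adjusted p = 0.095). The WT libraries spread more than the INSL3-KI libraries in both genes. Of 27 genes of glutathione and peroxide handling, 1 was called higher (0.211% of all genes), Gsta3, and the median was 1.18, or 0.35 without KI3.

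Among the lists of immune and other cells edgeR called no gene. Of all genes, 16.8% were lower and 16.6% higher at an unadjusted p-value under 0.05 by edgeR. DESeq2 called 8.28% lower and 4.97% higher, and these shares stand against the counts of each list. Kit, a receptor of mast cells and of several other cells, was at 6.64, 6.81 and 13.9 CPM in WT and 44.8, 35.9 and 43.3 CPM in INSL3-KI (edgeR adjusted p = 0.017). Cma1, a mast cell protease, was at 4.78, 4.80 and 9.27 CPM in WT and 0, 1.47 and 0.931 CPM in INSL3-KI (edgeR adjusted p = 0.18). Kit lay above and Cma1 below WT in every INSL3-KI library. The granulocyte and mast cell list, 7 tested, showed log2 fold changes with a median of -2.43, with 3 and 1 genes lower and higher at an unadjusted p-value under 0.05 and 2 and 1 by DESeq2. The macrophage list, 15 tested, showed log2 fold changes with a median of -0.10, with 0 and 2 genes lower and higher at an unadjusted p-value under 0.05 and 0 and 1 by DESeq2. Its median turned sign among the alternatives, from -1.07 to 0.23. Lyz2 of that list was at 144, 296 and 159.5 CPM in WT and 45.2, 244 and 92.7 CPM in INSL3-KI. KI2 was within the WT range and the other INSL3-KI libraries under it. The lymphocyte list, 12 tested, showed log2 fold changes with a median of 0.46, with 0 and 0 genes lower and higher at an unadjusted p-value under 0.05 and 0 and 0 by DESeq2. Its median turned sign among the alternatives, from -0.49 to 1.21. The pericyte list, 8 tested, showed log2 fold changes with a median of 0.18, with 1 and 1 genes lower and higher at an unadjusted p-value under 0.05 and 1 and 1 by DESeq2. Its median turned sign among the alternatives, from -0.39 to 0.42. The red blood cell list, 7 tested, showed log2 fold changes with a median of 0.89, with 0 and 0 genes lower and higher at an unadjusted p-value under 0.05 and 0 and 0 by DESeq2. Its median turned sign among the alternatives, from -1.47 to 1.60, the lowest being that without KI2. Cyp2e1, a cytochrome of liver that fat cells also make, was at 0.597, 0.178 and 0.0581 CPM in WT and 3115, 5872 and 155 CPM in INSL3-KI (edgeR adjusted p = 0.015), in the order of the white fat genes. The hepatocyte list, 3 tested, showed log2 fold changes with a median of 3.02, with 0 and 1 genes lower and higher at an unadjusted p-value under 0.05 and 0 and 1 by DESeq2. Apoa1 of that list was at 0.0746, 0 and 0.116 CPM in WT and 0, 18.8 and 0 CPM in INSL3-KI.

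Lists of cells outside the gubernaculum, of layered epithelia and of stress had no edgeR call at P23 either. The shares of all genes given for the immune lists stand against their P23 counts as well. The Leydig and Sertoli list, 7 tested, showed log2 fold changes with a median of -0.25, with 2 and 2 genes lower and higher at an unadjusted p-value under 0.05 and 0 and 1 by DESeq2. Its median turned sign among the alternatives, from -0.84 to 3.003, with the other sign under 11 of 14. The germ cell list, 4 tested, showed log2 fold changes with a median of 0.38, with 1 and 1 genes lower and higher at an unadjusted p-value under 0.05 and 0 and 1 by DESeq2. Its median turned sign among the alternatives, from -0.14 to 1.87. Few genes of the kidney, bone and cartilage, and accessory gland lists could be tested (2, 1 and 2), with medians of 4.59, 0.21 and 3.29, and DESeq2 called 0 and 0, 1 and 0, and 0 and 1 lower and higher. The stratified epithelium list, 7 tested, showed log2 fold changes with a median of 1.79, with 1 and 0 genes lower and higher at an unadjusted p-value under 0.05 and 1 and 0 by DESeq2. The heat shock list, 10 tested, showed log2 fold changes with a median of 0.55, with 0 and 4 genes lower and higher at an unadjusted p-value under 0.05 and 0 and 0 by DESeq2. In edgeR's test between the ages, 3 heat shock genes had a higher INSL3-KI effect at P23 and 0 a lower one (0.0867% and 0.173% of all genes). At an unadjusted p-value under 0.05 that test had 8 of the 10 (25.5% of all genes). The immediate early list, 13 tested, showed log2 fold changes with a median of -0.76, with 5 and 1 genes lower and higher at an unadjusted p-value under 0.05 and 4 and 0 by DESeq2. Jun of that list was at 302, 168 and 174 CPM in WT and 68.6, 80.0 and 85.3 CPM in INSL3-KI (edgeR adjusted p = 0.026), with the groups apart. Th, the enzyme of sympathetic nerves, was at 15.3, 4.97 and 37.9 CPM in WT and 0.426, 0 and 0.496 CPM in INSL3-KI (edgeR adjusted p = 0.044), also apart.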
